A study of Mus musculus with 24 samples.

Results

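Bone at 12 months of age was compared with bone at 6 months over both genotypes of the series, which placed 6 arrays at each age and used 12 of the 24 arrays. The 12 arrays were all those titled 12m or 6m, and every difference below is 12 minus 6 months with genotype held as a block. The mice were female and either wild type (WT) or HSD2OB-tg, and each genotype gave 3 arrays at 6 months and 3 at 12 months. HSD2OB-tg mice carry a transgene for 11-beta hydroxysteroid dehydrogenase type 2, an enzyme that inactivates glucocorticoids, directed to osteoblasts, the cells that build bone. Both genotypes had standard chow, and the labels name no other allele or agent. Total RNA came from tibiae and femur, and the labels mention flushing of marrow for the tibia, so the samples hold bone with some marrow and attached tissue. The series text calls the triplicates biological, but no animal is named for any array, so the p-values reflect spread among the arrays.

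Bone is a mixed tissue. Osteoblasts lay down matrix, osteocytes are the cells embedded in it, osteoclasts resorb it, and the marrow spaces hold blood-forming cells, immune cells and adipocytes. Aging marrow is known for more fat and a shifting share of lymphoid cells. Interferons are secreted signals of infection and immune activation. They act through transcription factors on a shared set of genes, including those that load peptides onto major histocompatibility complex (MHC) molecules for display to T cells. In RNA from whole tissue, fewer cells of a type and less RNA per cell cannot be told apart.

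Values are log2 signals as deposited, so a difference of 1 is a 2-fold change. Over genes, the 12 arrays correlated at 0.968 to 0.991, and Xist, the RNA of the inactive X, was at 10.26 to 10.59 on each of them. Defining bone markers were present: the mean signal of 12 osteoblast genes ran from 7.31 to 9.04 at 6 months and from 7.30 to 8.20 at 12 months. Marrow markers were present too, with 17 neutrophil genes averaging 9.60 to 10.50 at 6 months and 9.62 to 10.16 at 12 months. The source names carry a code with 3 prefixes, which the labels leave unexplained. At 12 months the prefixes were HEN679 on all 3 WT arrays and 1 HSD2OB-tg array and HEN513 on the other 2. At 6 months they were HEN753 on 2 WT arrays and 1 HSD2OB-tg array and HEN513 on the other 3. Prefix and age cannot be told apart within wild type, where the 2 ages share no prefix. Differences are therefore also given from a fit of all 24 arrays with a prefix term, and from the 2 against 2 HSD2OB-tg arrays with prefix HEN513. Among all 24 arrays, 34 genes differed by prefix within groups (0.153% of those tested, limma F-test, adjusted p under 0.05).

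No gene passed the test between 12 and 6 months. Limma called 0 of 22180 genes (0%) at an adjusted p under 0.05, and 2000 genes (9.02%) had an unadjusted p under 0.05. Of these, 1113 were higher at 12 months (5.02%) and 887 lower (4%). Every 12-month array lay above every 6-month array for 80 genes (0.361%) and below for 36 genes (0.162%), together 116 genes (0.523%). The median difference over all genes was 0.01, and 11659 genes (52.6%) had a difference above 0. With the prefix term over 24 arrays, limma again called 0 genes (0%), and 1139 (5.14%) had an unadjusted p under 0.05, 605 higher (2.73%) and 534 lower (2.41%). In simulated data with 22180 genes, the same fit recovered 26% of genes changed by 0.5, 90% of those changed by 1 and 98% of those changed by 2. It also called 7 unchanged genes. The simulated noise was independent between genes and arrays and held no prefix differences, so these shares need not hold for the real arrays. The changed genes were drawn at random, 50 at each size, and changing many at once loosens the adjusted threshold. None of the genes named below passed the adjusted threshold in this comparison, and their values describe what these 12 arrays hold.

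The highest list medians among 39 gene lists belonged to immune genes, and the lowest to skeletal muscle, tendon and bone cell genes, as the plot of list medians shows. The interferon response list had a median difference of 0.71, and 13 of its 14 measured genes were higher at 12 months. Its range ran from -0.15 to 1.92. Of its members, 0 passed the test, and 8 were higher at an unadjusted p under 0.05, where the background is 5.02%. The antigen presentation list, which holds MHC genes and the peptide-loading machinery, had a median of 0.65, and 13 of 13 genes were higher. Of these, 10 had an unadjusted p under 0.05. The interferon median was 0.74 with the prefix term and 0.41 within prefix HEN513, and the antigen presentation medians were 0.46 and 0.44. In wild type the medians were 0.85 for both lists, and in HSD2OB-tg bone they were 0.63 and 0.49.

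**Figure D1:**
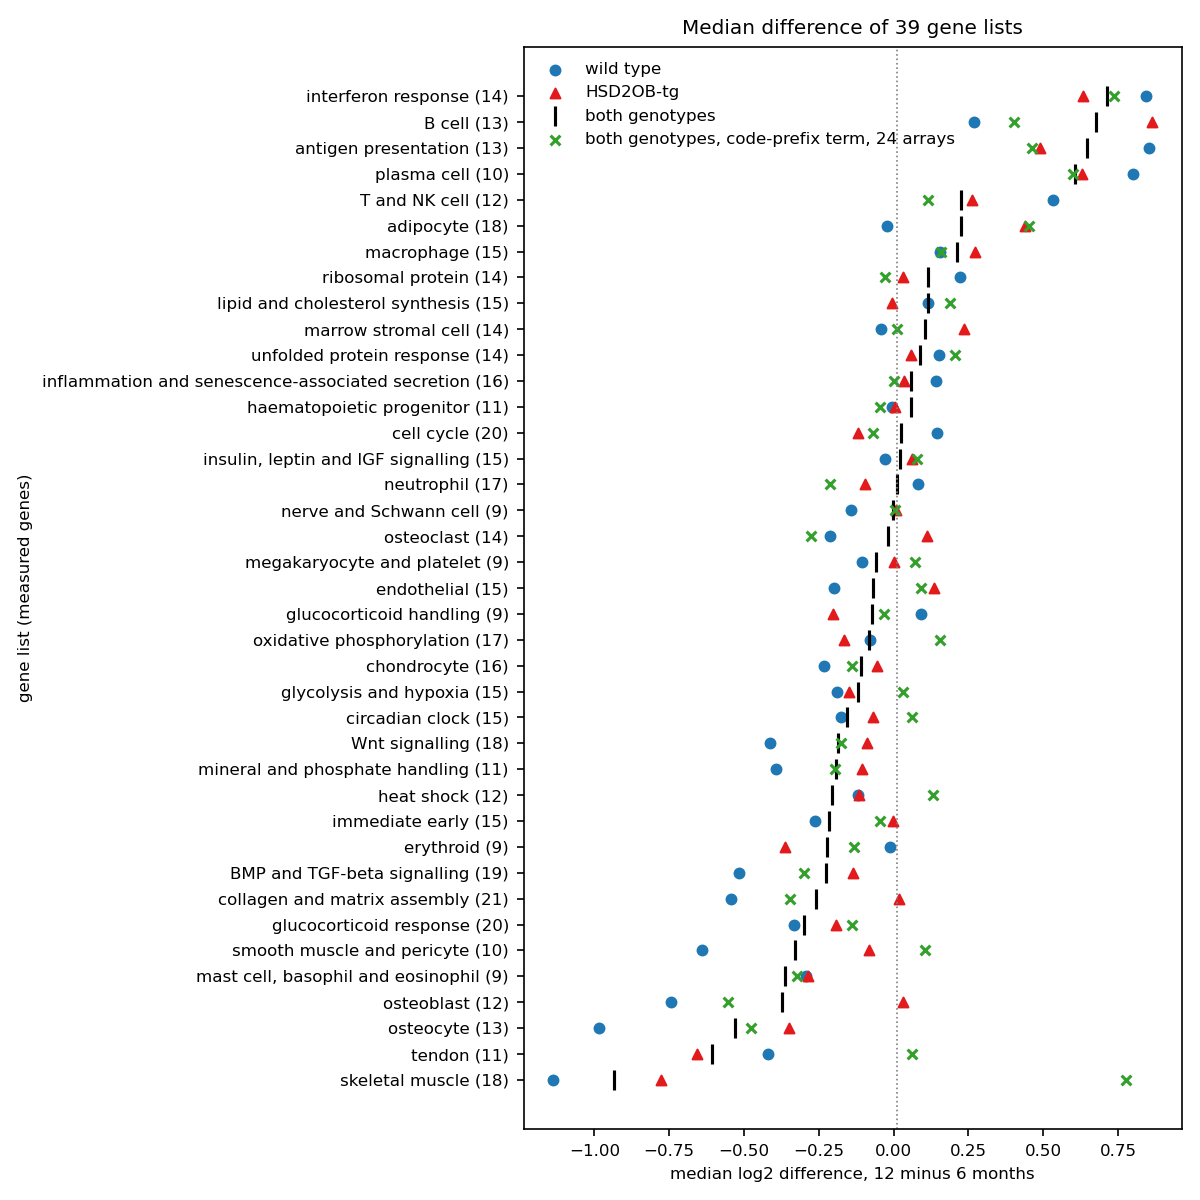
Median difference in log2 signal, 12 minus 6 months, of 39 gene lists (vertical axis, with the number of measured genes), ordered by the value over both genotypes (vertical bars). Circles are wild type, triangles HSD2OB-tg, crosses the fit over 24 arrays with a prefix term, and the dotted line the median of all genes. Interferon response (0.71) lies highest and skeletal muscle (-0.94) lowest, and the muscle value turns to 0.78 with the prefix term.

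H2-Eb1, which encodes the beta chain of an MHC class II molecule, had the largest difference in the antigen presentation list. At 6 months it measured 3.90, 4.66 and 4.31 in WT and 4.01, 4.53 and 4.29 in HSD2OB-tg bone. The 12-month values were 4.11, 6.79 and 7.39 in WT and 7.89, 6.36 and 7.27 in HSD2OB-tg bone. Of the 12-month arrays, 5 lay above all 6-month arrays, while WT 12m replicate 1 lay among them. The difference was 2.35 (SE 0.48, 95% interval 1.32 to 3.39, adjusted p = 0.241 by limma). With the prefix term it was 1.61, and within prefix HEN513 it was 2.55. Psmb8, a subunit of the immunoproteasome that cuts peptides for MHC class I, ran from 6.95 to 7.39 at 6 months, with a median of 7.15. At 12 months it ran from 7.24 to 8.58, with a median of 7.83, a difference of 0.73 (SE 0.20, limma adjusted p = 0.374).

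Zbp1, a sensor of Z-form nucleic acids induced by interferon, showed the same layout. Its 6-month values were 4.83, 5.15 and 4.78 in WT and 5.74, 5.07 and 4.42 in HSD2OB-tg bone. Its 12-month values were 5.04, 8.25 and 7.75 in WT and 7.23, 6.52 and 6.74 in HSD2OB-tg bone. Again 5 of 6 arrays at 12 months were above all at 6 months and WT 12m replicate 1 was not. The difference was 1.92 (SE 0.44, 95% interval 0.97 to 2.88, limma adjusted p = 0.275), with 1.64 under the prefix term and 1.23 within prefix HEN513.

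WT 12m replicate 1 sat at 6-month levels for these genes. Its mean over the interferon list was 4.92, within the 4.85 to 5.22 of the 6 arrays at 6 months, while the other 12-month arrays ran from 5.42 to 6.68. Its mean over the antigen presentation list was 6.49, below the 6.51 to 6.78 at 6 months, against 7.08 to 7.93 on the other 12-month arrays. Without this array the wild-type comparison of 12 with 6 months gave 32 genes at an adjusted p under 0.05 by limma, against 0 with it, and 31 of them were higher. Of the 32, 1 was in the interferon list and 5 in the antigen presentation list, and for 20 of the 31 higher genes replicate 1 was at or below the highest WT array at 6 months. The lower gene was Mir181b-2, for which replicate 1 (3.83) lay with WT 12m replicates 2 and 3 (3.58 and 3.44) and below the 6-month WT arrays (4.97 to 5.43). Over both genotypes, 3 genes passed without it, namely Asgr2 (1.39), H2-Eb1 (2.86) and Zbp1 (2.34). The array was singled out after its values were seen, and leaving it out removes a labelled 12-month sample. The 32 genes passed only without this array, so a low replicate 1 among the higher ones follows in part from that choice.

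Among the 31 genes, named here after their values were seen, Cxcl9 had the largest wild-type difference. Cxcl9 is a chemokine that interferon gamma induces and that draws T cells. At 12 months the values were 5.56, 10.35 and 9.94 in WT and 8.12, 6.76 and 8.09 in HSD2OB-tg bone. At 6 months it measured 5.70, 5.74 and 5.19 in WT and 5.26, 6.18 and 5.86 in HSD2OB-tg bone. The 3 HSD2OB-tg arrays at 12 months were thus all above the 6-month range, and below the 2 high WT arrays. The wild-type difference was 3.07 with all arrays, 4.61 without replicate 1 and 2.21 without WT 12m replicate 2. Gbp5, an interferon-induced guanylate-binding protein, measured 4.59, 7.12 and 7.03 in WT and 5.10, 5.48 and 5.36 in HSD2OB-tg bone at 12 months, against 4.30 to 4.60 on the 6 arrays at 6 months. Its wild-type difference was 1.84 with all arrays, 2.67 without replicate 1 and 1.40 without WT 12m replicate 2. The transcription factor gene Irf1 and Cd274, which encodes the ligand PD-L1, had wild-type differences of 1.15 and 1.30. Without replicate 1 these became 1.79 and 1.84. Irf1 differed by 0.71 without WT 12m replicate 2, and Cd274 by 1.02 without WT 12m replicate 3. Tap1, a peptide transporter subunit, differed in wild type by 0.98 with all arrays, 1.495 without replicate 1 and 0.68 without WT 12m replicate 2.

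**Figure D2:**
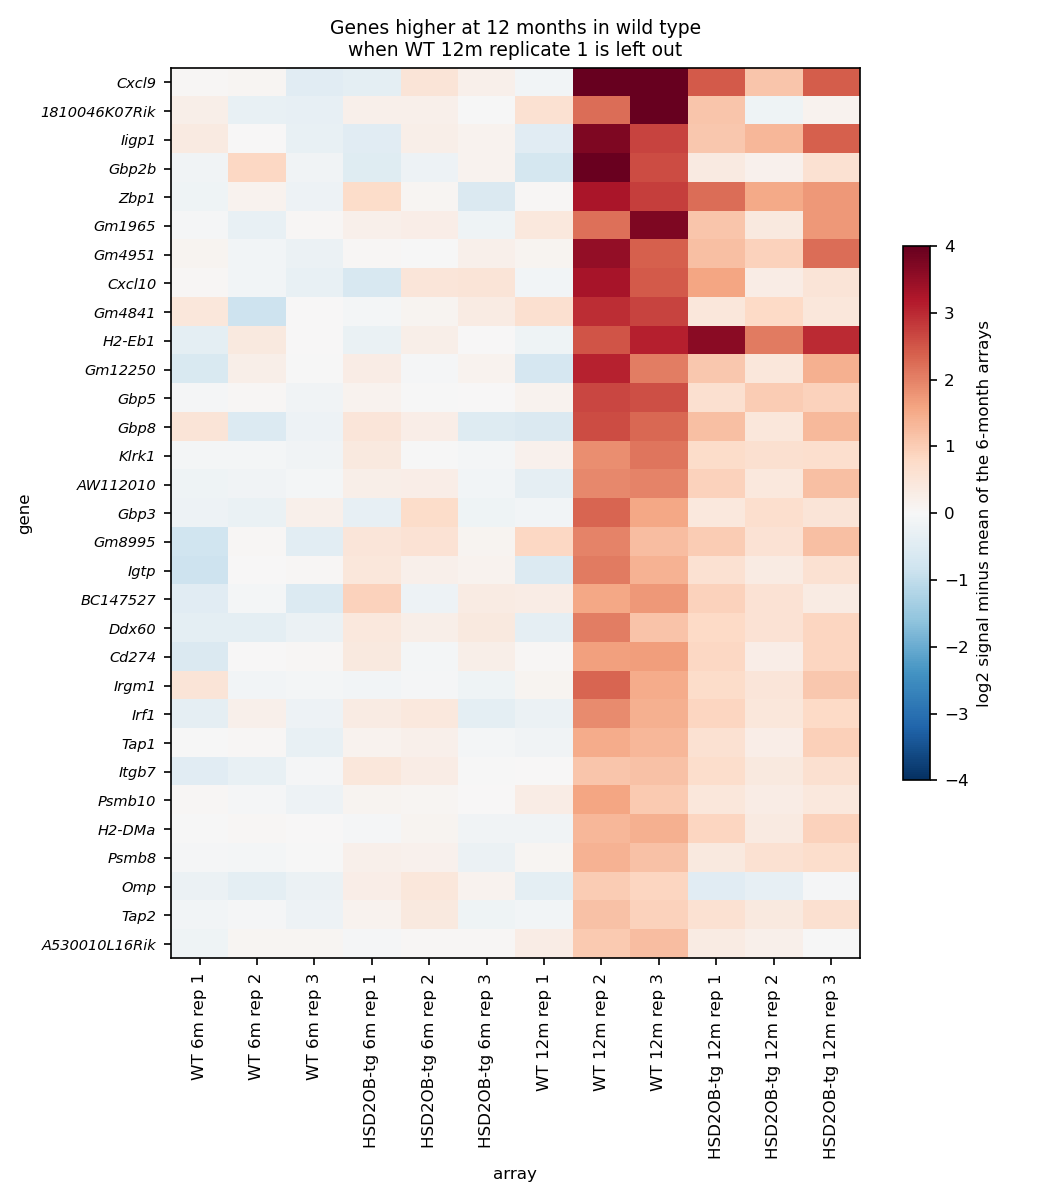
Log2 signal minus the mean of the 6 arrays at 6 months (colour, blue to red, limited to -4 and 4) for the 31 genes that were higher at 12 months in wild type when WT 12m replicate 1 was left out (rows), on each of the 12 arrays (columns). WT 12m replicates 2 and 3 are red throughout, replicate 1 is pale like the 6-month arrays in most rows, and most HSD2OB-tg arrays at 12 months lie between. The rows were picked with replicate 1 left out, which favours genes where it is low.

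Promoter windows of 3 of these genes are shown because their members lay high on the same arrays. Each window is 250 bases before to 50 bases after a RefSeq start site (GRCm38.p6), 5′ to 3′ on the gene's strand, and all 3 genes lie on the plus strand. Irf1 has 2 windows, and the window shown was chosen for its motif matches. Capitals mark matches, on either strand, to the core of the interferon-stimulated response element, bound by IRF factors, and to the gamma-activated site TTCNNNGAA in Gbp5 and Irf1. The Irf1 window matched only the gamma-activated site. In H2-Eb1 capitals mark ATTGG or its reverse CCAAT, the core of the CCAAT box, which the Y box of MHC class II promoters holds. A match so short does not by itself mark a Y box. The windows are chr3:142496684-142496983 for Gbp5, chr11:53769764-53770063 for Irf1 and chr17:34305617-34305916 for H2-Eb1.
Gbp5: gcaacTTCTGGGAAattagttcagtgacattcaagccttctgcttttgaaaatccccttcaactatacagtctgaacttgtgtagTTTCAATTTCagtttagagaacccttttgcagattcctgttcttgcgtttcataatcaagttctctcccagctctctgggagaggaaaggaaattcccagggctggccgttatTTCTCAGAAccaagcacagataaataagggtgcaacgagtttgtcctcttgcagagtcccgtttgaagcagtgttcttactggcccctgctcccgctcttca
Irf1: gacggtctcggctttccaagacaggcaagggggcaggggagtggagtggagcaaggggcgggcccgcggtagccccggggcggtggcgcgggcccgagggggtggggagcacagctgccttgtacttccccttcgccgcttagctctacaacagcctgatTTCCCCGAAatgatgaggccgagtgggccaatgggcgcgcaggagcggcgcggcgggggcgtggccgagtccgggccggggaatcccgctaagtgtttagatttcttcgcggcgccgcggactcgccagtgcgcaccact
H2-Eb1: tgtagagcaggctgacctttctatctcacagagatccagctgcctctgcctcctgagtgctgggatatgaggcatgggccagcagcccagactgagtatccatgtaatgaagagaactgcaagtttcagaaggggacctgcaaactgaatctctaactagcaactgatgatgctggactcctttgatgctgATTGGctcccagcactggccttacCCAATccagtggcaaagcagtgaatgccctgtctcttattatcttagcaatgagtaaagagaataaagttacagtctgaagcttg

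In Gbp5 the matches begin 245, 165 and 52 bases before the start site, in Irf1 90 bases and in H2-Eb1 59 and 35 bases before it. The core of the interferon-stimulated response element was, on either strand, in the window of 6 of the 9 interferon-list genes that had one, or 66.7%, against 3.99% of 27025 genes with windows. The 31 genes higher in wild type without replicate 1 were picked from these same values. Of them, 23 had a window and 9 of these (39.1%) held it. So did 1 of the 9 antigen presentation genes with a window (11.1%). The gamma-activated site, which reads the same on both strands, was in 5 of those 23 (21.7%), against 9.55% of all genes. ATTGG on either strand was in 8 of 9 antigen presentation genes (88.9%), against 41.1% of all genes. A match shows only that the letters are in the window.

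B cell and plasma cell genes also lay higher at 12 months. The B cell list had a median difference of 0.67, with 13 of 13 measured genes above 0. In this list 6 genes were higher at an unadjusted p under 0.05, where the background is 5.02%. Its array means ran from 5.62 to 6.89 at 6 months and from 6.15 to 7.10 at 12 months, so the ages overlapped. The wild-type median was 0.27 and the HSD2OB-tg median 0.86, and the prefix term gave 0.40. Cd79a, the signalling chain of the B cell receptor, ran from 8.12 to 9.57 at 6 months (median 8.83) and from 9.03 to 10.65 at 12 months (median 9.68). The difference was 0.86 (SE 0.25, limma adjusted p = 0.389). Cd22, an inhibitory receptor of B cells, differed by 0.95 (SE 0.22), and by 0.39 with the prefix term. The plasma cell list had a median of 0.61, with 9 of 10 genes higher and 7 at an unadjusted p under 0.05, and of 0.60 with the prefix term. Derl3, which serves the disposal of misfolded secretory proteins, differed by 1.02 (SE 0.32), and the array WT 12m replicate 3 was highest at 7.11. Without that array its difference was 0.68. Sdc1, the plasma cell surface proteoglycan, differed by 0.48 (SE 0.15).

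Among T cell genes, Cd3e separated the ages. Cd3e, a chain of the T cell receptor complex, measured 5.28, 5.36 and 5.28 in WT and 5.40, 4.93 and 5.48 in HSD2OB-tg bone at 6 months. By 12 months the values were 5.82, 5.85 and 7.85 in WT and 6.99, 5.85 and 6.93 in HSD2OB-tg bone. All 12-month arrays lay above all 6-month arrays, and the difference was 1.26 (SE 0.32, limma adjusted p = 0.345). Cd3g, a second chain, differed by 1.14 (SE 0.36) with overlapping ages. The T and NK cell list had a median of 0.23, with 11 of 12 genes above 0, and of 0.11 with the prefix term, with 7 of 12 above 0. It was 0.36 without HSD2OB-tg 6m replicate 1. The macrophage list had a median of 0.21, with 13 of 15 genes higher, and of 0.12 without WT 12m replicate 3. The prefix term gave a median of 0.16 with 9 of 15 genes above 0. Within it Fcgr1, a high-affinity receptor for IgG, differed by 1.13 (SE 0.32), while Gpnmb, a lysosomal glycoprotein of macrophages and bone cells, differed by -1.55 (SE 0.37). Neutrophil genes had a median of 0.01, and 9 of 17 were above 0. Both the prefix term and HEN513 alone gave -0.21, with 3 and 2 of 17 above 0. As each array was left out the median ran from -0.06 to 0.11.

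Over both genotypes adipocyte genes lay higher at 12 months, and the list median was above 0 in HSD2OB-tg bone only. The list had a median of 0.23, with 15 of 18 genes above 0. Of these, 5 had an unadjusted p under 0.05, where the background is 5.02%. The wild-type median was -0.02 and the HSD2OB-tg median 0.44. Plin1, which coats lipid droplets, measured 4.91, 4.06 and 5.08 in WT and 4.04, 4.50 and 4.21 in HSD2OB-tg bone at 6 months. On the 12-month arrays the values were 5.60, 6.34 and 5.22 in WT and 5.96, 5.27 and 7.19 in HSD2OB-tg bone. No array overlapped between the ages, and HSD2OB-tg 12m replicate 3 was highest. The difference was 1.46 (SE 0.32, 95% interval 0.77 to 2.16, limma adjusted p = 0.255), with 1.69 under the prefix term. Scd1, a desaturase that makes monounsaturated fatty acids, ran from 8.02 to 9.22 at 6 months (median 8.38) and from 9.08 to 10.93 at 12 months (median 9.62). It differed by 1.25 (SE 0.31), and by 1.60 with the prefix term. HSD2OB-tg 12m replicate 3 had the highest mean of the adipocyte list, at 7.66, against 6.63 to 7.01 on the other 12-month arrays. Without it the list median was 0.12. The marrow stromal cell list, whose cells include adipocyte precursors, had a median of 0.10 with 10 of 14 genes above 0, and of 0.01 with 7 of 14 under the prefix term. It was 0.04 without HSD2OB-tg 12m replicate 3, 0.06 without HSD2OB-tg 6m replicate 2 and 0.07 without WT 12m replicate 2. Of its members, the leptin receptor gene Lepr differed by 0.34 (SE 0.12) and Esm1, a secreted proteoglycan, by 0.49 (SE 0.14).

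**Figure D3:**
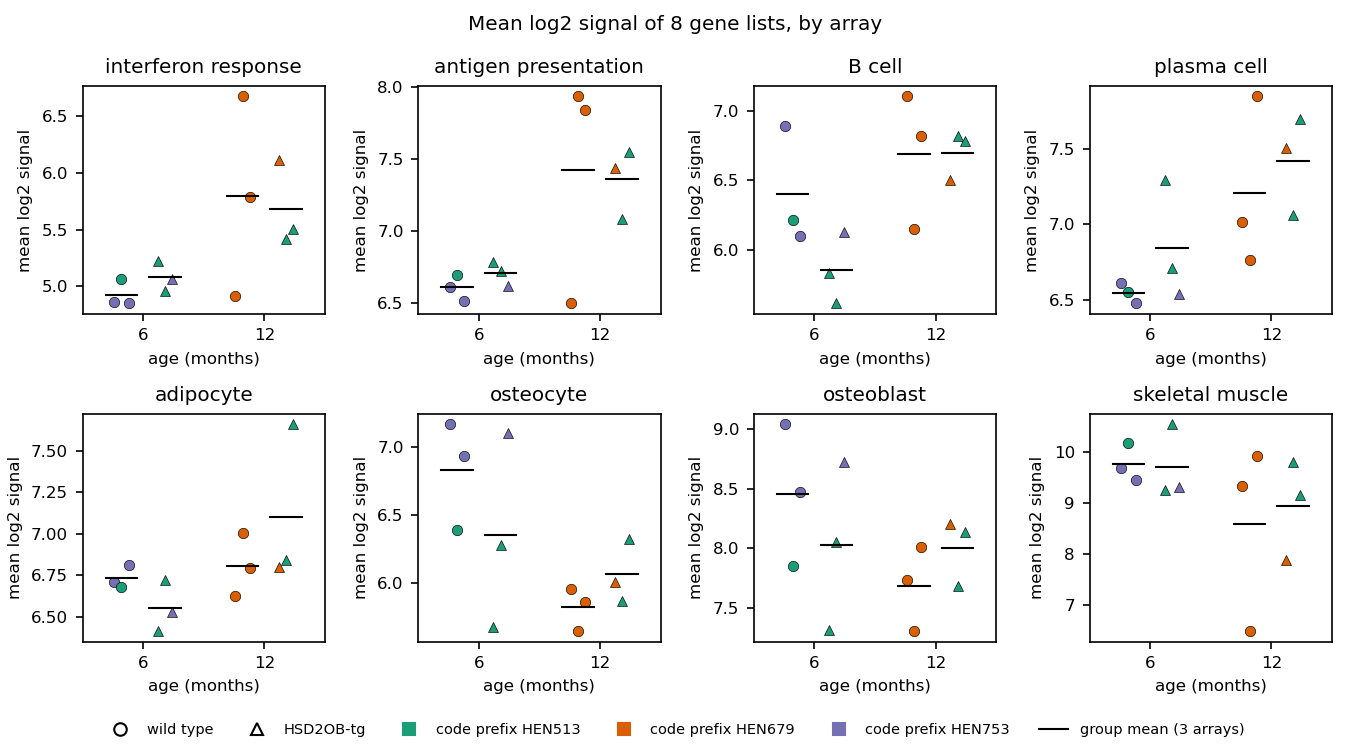
Mean log2 signal of 8 gene lists (vertical axes) on each array at 6 and 12 months (horizontal axes), with circles for wild type, triangles for HSD2OB-tg, colours for the code prefix and bars for group means of 3 arrays. WT 12m replicate 1 lies with the 6-month arrays for interferon response (4.92) and antigen presentation (6.49), the HEN753 arrays are high for osteocyte and osteoblast genes, and WT 12m replicate 2 (6.49) is lowest for skeletal muscle.

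The gene with the lowest p was Npy, which encodes neuropeptide Y, a transmitter of sympathetic nerves and a peptide of bone cells. At 6 months it measured 7.24, 8.59 and 7.81 in WT and 7.30, 5.45 and 8.11 in HSD2OB-tg bone. The arrays at 12 months read 4.36, 3.61 and 4.55 in WT and 3.59, 4.07 and 4.77 in HSD2OB-tg bone. The ages did not overlap. The difference was -3.26 (SE 0.41, 95% interval -4.16 to -2.36, limma adjusted p = 0.0635). With the prefix term it was -1.20 (95% interval -2.69 to 0.28), and within prefix HEN513 it was -1.96. At 18 months the 2 HEN679 arrays measured 3.35 and 3.74, and the 4 HEN513 arrays measured 7.15 to 8.72. Low Npy thus went with prefix HEN679 at 18 months. At 12 months 4 of the 6 arrays carry that prefix, at 3.59 to 4.55, and the 2 HEN513 arrays, HSD2OB-tg replicates 2 and 3, were low too, at 4.07 and 4.77.

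The other genes with the lowest p among those lower at 12 months came from several processes. Mmp12, a macrophage elastase, measured 5.67, 5.07 and 5.51 in WT and 5.38, 4.11 and 4.85 in HSD2OB-tg bone at 6 months. The values at 12 months were 3.18, 3.69 and 2.61 in WT and 2.60, 3.93 and 3.69 in HSD2OB-tg bone. The ages did not overlap, and the difference was -1.82 (SE 0.30, limma adjusted p = 0.202), or -1.21 with the prefix term. Eln, which encodes the elastic fibre protein elastin, ran from 4.45 to 5.42 at 6 months (median 5.04) and from 3.79 to 4.35 at 12 months (median 4.07). It differed by -0.88 (SE 0.17, limma adjusted p = 0.228). Tg, the thyroglobulin gene, ran from 5.65 to 7.11 at 6 months (median 6.31) and from 4.94 to 5.42 at 12 months (median 5.36), a difference of -1.07 (SE 0.22). It was among the genes that differed by prefix (limma F-test, adjusted p = 0.0266), a call lost with the replicate number as a block (adjusted p = 0.125). Replicate number largely follows the prefix within groups that mix prefixes, so the lost call does not settle the matter. Frmd3, a gene for a cytoskeletal FERM-domain protein, differed by -1.02 (SE 0.19), from 2.70 to 3.86 at 6 months to 1.90 to 2.40 at 12 months. Ift43, which encodes a part of the transport machinery of cilia, differed by -0.55 (SE 0.11). All of these were non-overlapping between the ages and kept a negative sign with the prefix term and within prefix HEN513.

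Among genes higher at 12 months, Trim14 had the lowest p. Trim14, an adaptor in antiviral signalling, measured 5.01, 5.29 and 4.89 in WT and 4.99, 4.88 and 4.78 in HSD2OB-tg bone at 6 months. The later age gave 5.83, 5.76 and 5.68 in WT and 5.32, 5.44 and 5.59 in HSD2OB-tg bone. The difference was 0.63 (SE 0.10, limma adjusted p = 0.165), and 0.41 with the prefix term. C4b, a complement component, ran from 6.18 to 6.88 at 6 months (median 6.60) and from 7.02 to 8.42 at 12 months (median 7.61). It differed by 1.10 (SE 0.20, limma adjusted p = 0.228), by 0.92 with the prefix term and by 1.22 within prefix HEN513. Lmo1, a LIM-domain transcriptional cofactor, differed by 0.74 (SE 0.12), and Map4k1, a kinase of blood cells that restrains lymphocyte receptor signals, by 0.61 (SE 0.11). Usf1, a basic helix-loop-helix transcription factor, differed by 0.55 (SE 0.10) and Ap1g2, an adaptor subunit of vesicle coats, by 0.45 (SE 0.08). Each of these 6 genes had every 12-month array above every 6-month array.

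**Figure D4:**
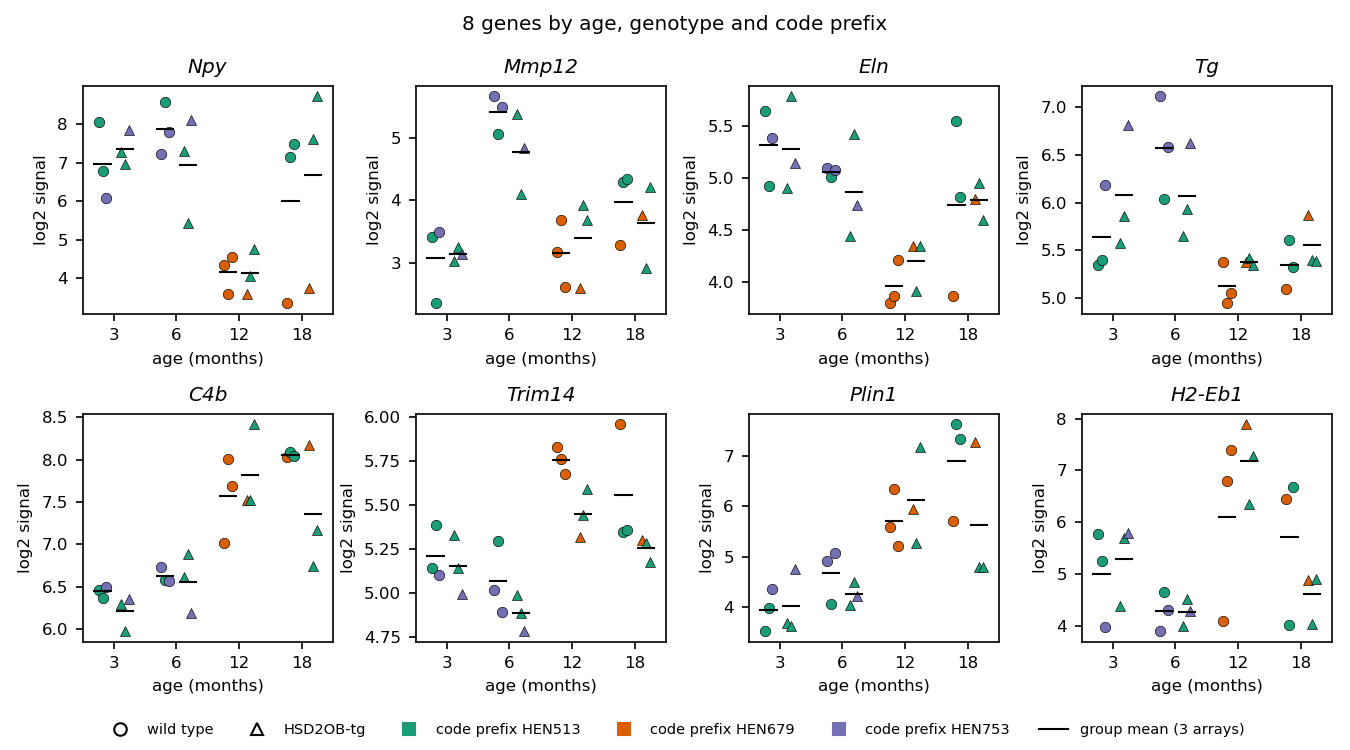
Log2 signal (vertical axes) of 8 genes on all 24 arrays by age in months (horizontal axes), with circles for wild type, triangles for HSD2OB-tg, colours for the code prefix and bars for group means of 3 arrays. Npy, Mmp12, Eln and Tg are lower and C4b, Trim14 and Plin1 higher on every 12-month than every 6-month array, H2-Eb1 is higher on 5 of 6, and at 18 months the HEN679 arrays of Npy (3.35 and 3.74) lie apart from the rest.

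Osteocyte and osteoblast genes lay lower at 12 months, with the lower list medians in wild type. The osteocyte list had a median of -0.53, with 12 of 13 genes below 0 and 7 lower at an unadjusted p under 0.05, where the background is 4%. The wild-type median was -0.98, the HSD2OB-tg median -0.35, and within prefix HEN513 the median was 0.13, with 9 of 13 genes above 0. Without HSD2OB-tg 6m replicate 1 the median over both genotypes was -0.80. Sost, which encodes the Wnt inhibitor sclerostin made by osteocytes, measured 9.51, 8.47 and 8.93 in WT and 7.37, 7.60 and 9.04 in HSD2OB-tg bone at 6 months. The 12-month values were 7.03, 6.51 and 6.20 in WT and 7.53, 7.23 and 7.61 in HSD2OB-tg bone. The 3 HEN753 arrays were WT replicates 1 and 3 and HSD2OB-tg replicate 3 at 6 months, and they held the 3 highest values. The difference was -1.47 (SE 0.37, limma adjusted p = 0.345), -2.39 in wild type and -0.55 in HSD2OB-tg bone. It was -0.94 with the prefix term (95% interval -1.61 to -0.27) and -0.06 within prefix HEN513. Mepe, a matrix phosphoglycoprotein of osteocytes, differed by -1.40 (SE 0.40), by -0.80 with the prefix term and by 0.13 within HEN513. Its F-test by prefix gave an adjusted p of 0.0266 in limma, and of 0.125 with the replicate number as a block. That block largely follows the prefix within groups that mix prefixes.

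In the osteoblast list, 0 of 12 genes were above 0. Of the 12, 1 was lower at an unadjusted p under 0.05, where the background is 4%. The list median was -0.37. It was -0.74 in wild type and 0.03 in HSD2OB-tg bone. Leaving out single arrays moved it to -0.18 without WT 6m replicate 1 and to -0.58 without HSD2OB-tg 6m replicate 1. With the prefix term the median was -0.55, and within HEN513 it was 0.41, with 10 of 12 genes above 0. Bglap, which encodes osteocalcin, ran from 4.63 to 5.74 at 6 months (median 5.17) and from 3.58 to 5.08 at 12 months (median 4.65). It differed by -0.73 (SE 0.28, limma adjusted p = 0.471), and by -1.11 within HEN513. Bglap has near-identical neighbouring copies, so its row may hold signal of more than 1 gene. HSD2OB-tg 6m replicate 1 was the lowest 6-month array for osteoblast (7.31), osteocyte (5.68) and collagen (7.23) list means. Omd, the bone keratan sulfate proteoglycan osteomodulin, differed by -0.65 (SE 0.32), by -0.92 without that array and by -0.45 without HSD2OB-tg 6m replicate 3.

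Matrix and growth factor genes had list medians below 0 over both genotypes, and above 0 within prefix HEN513. The collagen and matrix assembly list had a median of -0.26, with 20 of 21 genes below 0, and of -0.54 in wild type against 0.02 in HSD2OB-tg bone. It was -0.12 without WT 6m replicate 1, -0.15 without WT 12m replicate 2, -0.17 without HSD2OB-tg 6m replicate 3 and -0.44 without HSD2OB-tg 6m replicate 1. The prefix term gave -0.35 with 20 of 21 below 0, while within HEN513 the median was 0.20 with 14 of 21 above 0. Col3a1, a fibrillar collagen of soft tissue, differed by -1.03 (SE 0.39) and Plod2, a lysyl hydroxylase that sets collagen cross-links, by -0.81 (SE 0.31). The BMP and TGF-beta list had a median of -0.23, with 16 of 19 genes below 0. It was -0.36 without HSD2OB-tg 6m replicate 1, -0.34 without HSD2OB-tg 6m replicate 2 and -0.30 with the prefix term, and within HEN513 it was 0.10 with 13 of 19 above 0. Tgfb2, a TGF-beta ligand, ran from 6.26 to 7.64 at 6 months (median 7.20) and from 4.96 to 6.55 at 12 months (median 5.99), a difference of -1.12 (SE 0.29). Bmp2, a ligand that drives osteoblast formation, differed by -0.58 (SE 0.18). The Wnt list had a median of -0.19, with 15 of 18 genes below 0. The prefix term gave -0.17 with 10 of 18 below 0, and HEN513 alone gave 0.11 with 13 of 18 above 0. Its member Sfrp1, a secreted Wnt antagonist, measured 5.21, 4.80 and 5.26 in WT and 4.84, 4.54 and 5.15 in HSD2OB-tg bone at 6 months. At 12 months the values were 5.65, 5.65 and 5.93 in WT and 5.63, 5.26 and 6.04 in HSD2OB-tg bone. The ages did not overlap, and the difference was 0.73 (SE 0.15, limma adjusted p = 0.241), or 0.67 with the prefix term. Osteoclast genes had a median of -0.02 with 7 of 14 above 0, and the value changed with the setting. Under the prefix term it was -0.28 with 0 of 14 above 0, within HEN513 it was 0.19 with 12 of 14 above 0, and it ran from -0.14 to 0.04 as each array was left out. Atp6v0d2, a proton pump subunit of osteoclasts, differed by -0.59 (SE 0.26) and the calcitonin receptor gene Calcr by -0.32 (SE 0.16), or -0.18 without WT 12m replicate 1, and both signs turned within HEN513.

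Skeletal muscle genes, which mark attached muscle, had the lowest median, -0.94, with 18 of 18 genes below 0 and 0 at an unadjusted p under 0.05. Without WT 12m replicate 2 it was -0.49. Their mean was 9.25 to 10.54 at 6 months. At 12 months it was 6.49 on WT replicate 2 and 7.88 on HSD2OB-tg replicate 1, and 9.15 to 9.91 on the other 4 arrays, within or just below the 6-month range. The sign turned to 0.78 with the prefix term, with 18 of 18 above 0. Within prefix HEN513 the median was -0.44, with 0 of 18 above 0. Myh1, a fast myosin heavy chain, differed by -1.20 (SE 0.58), by -0.64 without WT 12m replicate 2 and by 1.01 with the prefix term. For Pvalb, the calcium buffer of fast fibres, these values were -0.95, -0.54 and 0.78. Tendon genes had a median of -0.61 and 0.06 with the prefix term. In that list Thbs4, a matrix thrombospondin, differed by -1.30 (SE 0.57), or -0.85 without that array, and the tendon transcription factor gene Mkx by -0.72 (SE 0.26). With the mean of the muscle genes as a covariate in the fit, the tendon median became -0.17, the interferon median 0.46 and the antigen presentation median 0.49. The collagen and matrix assembly median became -0.16, and 7 of the 39 list medians changed sign, all of them within 0.1 of 0 without the covariate. The named genes kept their sign, with Myh1 at -0.13 and Klf9 at -0.36. Myh1 belongs to the list that forms the covariate, so its move toward 0 is built in. The part of tendon RNA in other differences was not tested.

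The mast cell, basophil and eosinophil list had a median of -0.36, with 6 of 9 genes below 0 and 3 above. Of the 9, 3 were lower at an unadjusted p under 0.05, where the background is 4%. The median was -0.32 with the prefix term and -0.18 within HEN513. The members of lowest p encode eosinophil granule proteins, and their values spread widely. Epx, which encodes eosinophil peroxidase, measured 8.72, 7.09 and 9.32 in WT and 8.19, 5.86 and 9.51 in HSD2OB-tg bone at 6 months. By 12 months the values were 7.10, 5.15 and 4.12 in WT and 6.23, 6.43 and 8.04 in HSD2OB-tg bone. The ages overlapped, and the difference was -1.94 (SE 0.70, limma adjusted p = 0.459). Prg2, the major basic protein of the same granules, differed by -1.28 (SE 0.50). Within prefix HEN513 both were above 0, at 0.21 and 0.31.

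Genes that respond to glucocorticoids bear on the enzyme the transgene carries. Hsd11b2 itself measured at most 3.68 on the WT arrays and 3.92, 4.67 and 5.01 in HSD2OB-tg bone at 6 months. On the 12-month arrays the values were 3.39, 3.69 and 3.38 in WT and 4.40, 4.59 and 4.46 in HSD2OB-tg bone. The HSD2OB-tg arrays lay above the WT arrays at both ages, and the age difference was -0.11 (SE 0.15, limma adjusted p = 0.886). Glucocorticoid response genes had a median difference of -0.30, with 16 of 20 genes below 0. Of these, 9 had an unadjusted p under 0.05, where the background is 4%. The medians were -0.33 in wild type, -0.19 in HSD2OB-tg bone, -0.14 with the prefix term and -0.11 within HEN513. Ddit4, an inhibitor of mTOR signalling that glucocorticoids induce, measured 6.88, 6.05 and 6.61 in WT and 5.08, 5.62 and 6.44 in HSD2OB-tg bone at 6 months. The arrays at 12 months read 4.80, 4.75 and 5.46 in WT and 5.27, 4.93 and 5.13 in HSD2OB-tg bone. Only HSD2OB-tg 6m replicate 1 lay within the 12-month range, and the difference was -1.06 (SE 0.25, limma adjusted p = 0.307). Klf9, a transcription factor gene induced by glucocorticoids, differed by -0.57 (SE 0.17), and by -0.27 with the prefix term. The palindrome of the glucocorticoid receptor element was in the promoter windows of 4 of 16 list genes (25%), against 0.537% of all genes.

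The age difference was also fitted in each genotype and compared between them. Limma called 0 genes in wild type (0%), 0 in HSD2OB-tg bone (0%) and 0 for the difference between the genotypes (0%). At an unadjusted p under 0.05 the counts were 1650 (7.44%), 1137 (5.13%) and 823 (3.71%). Across genes, which are not independent replicates, the age differences of the genotypes correlated at 0.354. In wild type, the lowest p among higher genes included Cd1d1, which presents lipids to T cells and differed by 1.27, against 0.57 in HSD2OB-tg bone. In HSD2OB-tg bone, Mndal, an interferon-inducible gene of the Ifi200 family, differed by 2.38, against 0.05 in wild type. Its HSD2OB-tg values were 3.37, 3.50 and 5.08 at 6 months and 5.86, 6.36 and 6.87 at 12 months, and its WT values lay between 5.46 and 6.17 throughout. Slc7a10, an amino acid transporter of adipocytes and brain, differed by 1.40 in HSD2OB-tg bone and 0.40 in wild type. Among genes lower in HSD2OB-tg bone, Acsl6, a fatty acid activating enzyme, differed by -0.65, with 0.13 in wild type. Among the genes of lowest p for the difference between genotypes, Shisal1 had a difference of 1.69, with -1.18 in wild type and 0.51 in HSD2OB-tg bone. None of these passed the adjusted threshold.

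MicroRNA genes make short RNAs that repress target messages. Among their 483 rows, 43 were lower at an unadjusted p under 0.05 (8.9%), against 4% of all genes, and 9 were higher (1.86%). Every 12-month array lay below every 6-month array for 4 of them and above for 0, against 0.162% and 0.361% of all genes. With the prefix term 20 of the 483 were lower and 15 higher at that threshold, against 2.41% and 2.73% of all genes. Their median signal was 2.11, against 4.31 over all genes, so many are dim, and the labels and annotation do not say which RNA form the rows detect. The genes described here were chosen after their values were seen.

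Mature sequences of Mir15/16 and Mir181 genes are shown because all measured genes with their 2 seeds lay below 0 at 12 months. That of Mir103-2 is added because its ages did not overlap, although not all genes with its seed were below 0. Capitals mark bases 2 to 8, the seed that pairs with target RNAs, and the sequences are from RefSeq (GRCm38.p6).
mmu-miR-15a-5p: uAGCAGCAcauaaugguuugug
mmu-miR-15b-5p: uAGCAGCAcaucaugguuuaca
mmu-miR-16-5p: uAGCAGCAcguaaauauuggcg
mmu-miR-181b-5p: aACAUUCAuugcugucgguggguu
mmu-miR-103-3p: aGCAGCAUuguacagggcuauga

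Seed AGCAGCA belonged to 6 measured genes, all 6 below 0 with a median of -0.70, and 4 of them at an unadjusted p under 0.05. Mir15a measured 7.80, 7.71 and 7.76 in WT and 7.54, 7.58 and 7.55 in HSD2OB-tg bone at 6 months. The values at 12 months were 6.94, 7.03 and 6.60 in WT and 6.12, 7.22 and 6.94 in HSD2OB-tg bone. The ages did not overlap, and the difference was -0.85 (SE 0.16, limma adjusted p = 0.228), or -0.46 with the prefix term. Mir16-1, its neighbour on chromosome 14, differed by -0.62 (SE 0.16), also with no overlap, and by -0.14 with the prefix term. Mir15b and Mir16-2, neighbours on chromosome 3, differed by -0.78 (SE 0.20) and -0.99 (SE 0.29), and with the prefix term by 0.08 and -0.35. Neighbouring genes can come from 1 primary transcript, so they are not independent.

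Seed ACAUUCA belonged to 6 measured genes, again all 6 below 0, with a median of -0.52 and 3 at an unadjusted p under 0.05. Mir181b-1 ran from 4.58 to 6.50 at 6 months (median 5.49) and from 1.62 to 4.68 at 12 months (median 2.92). It differed by -2.50 (SE 0.50, limma adjusted p = 0.240), by -1.37 with the prefix term and by -0.72 within HEN513. Mir181b-2 on chromosome 2 differed by -1.09 (SE 0.21), and by -1.35 with the prefix term. Of the 3 genes with seed GCAGCAU, 2 were below 0 and Mir103-1 differed by 0.28. Mir103-2 ran from 4.54 to 5.60 at 6 months (median 4.96) and from 2.29 to 4.19 at 12 months (median 3.54), a difference of -1.56 (SE 0.30), or -0.96 with the prefix term. The rows of Mir99a and of the erythroid Mir144 differed by -1.13 (SE 0.24) and -1.18 (SE 0.27), and by -0.75 and -0.15 with the prefix term.

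Rows with no single gene symbol were tested apart, and 7 of 17513 (0.04%) passed at an adjusted p under 0.05 by limma. Of these, 2 were higher and 5 lower at 12 months, and 0 passed with the prefix term over 24 arrays.

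**Figure D5:**
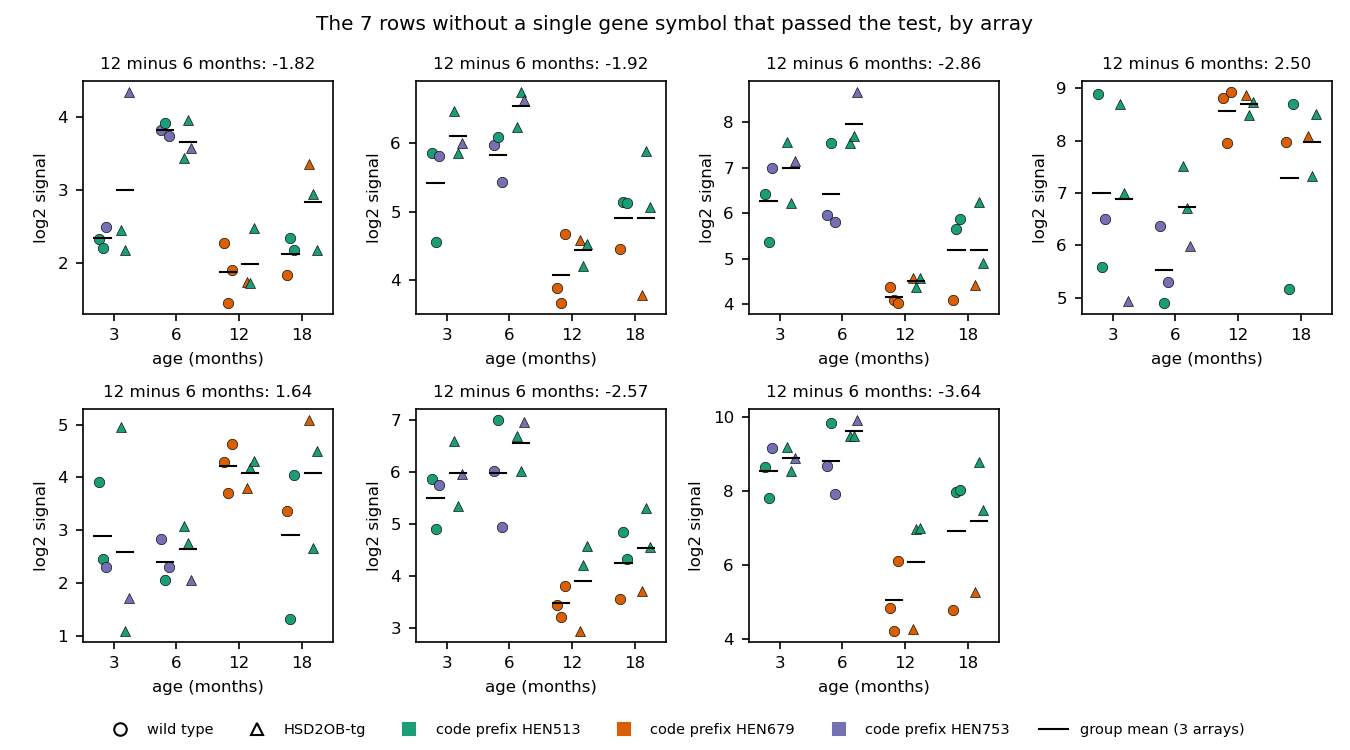
Log2 signal (vertical axes) of these 7 rows on all 24 arrays by age in months (horizontal axes), with circles for wild type, triangles for HSD2OB-tg, colours for the code prefix and bars for group means of 3 arrays. In each panel the 6-month and 12-month arrays do not overlap, and differences run from -3.64 to 2.50.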

How the data were processed

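The 12 bone samples were hybridised to Affymetrix arrays (Mouse Gene 2.1 ST), and the authors deposited their log2 values as 1 table. The log base was inferred from the range of values, 0.09 to 13.7. Per the submitters' processing notes, MAS5 was used. How background and scaling were handled is not given in the sources used here. Array medians ran from 3.56 to 3.64, and the number of arrays limits the precision.

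Of 41034 rows, 23521 had 1 gene symbol, 1814 several and 15699 none. For the 1082 genes with several rows, the row with the highest mean stood for the gene. This left 22180 genes. Of the rows with 1 symbol, 23328 matched a RefSeq table (GRCm38.p6).

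Limma 3.58.1 in R 4.3.3 (lmFit, eBayes) fitted age with genotype as a block, with 9 residual degrees of freedom. All p-values are two-sided. Adjusted p-values are by Benjamini-Hochberg over the features in each fit. These were the 22180 genes in the main fit and the 17513 rows with no single symbol in theirs. Unadjusted p-values are named as such. The fit was tested on simulated data with 50 genes changed at each size. The comparison, the 39 lists and the alternatives were chosen with earlier results of these data known. Lists are described by counts and medians and not tested.

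Named genes were those called with no overlap or, since none was called, the 6 of lowest p among higher and among lower genes. Up to 2 genes of lowest p were added from each list and up to 3 in each direction from the genotype fits, with Hsd11b2 always. Predicted genes, small RNA genes and receptor or antibody segments, 4981 in all, were kept out of this rule. MicroRNA genes and the genes around WT 12m replicate 1 were added after their values were seen. Not all genes the rule took are printed.

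Replicate numbers did not pair the samples. Over 18 same-number pairs, deviations from group means correlated at -0.30 to 0.16, and other pairs at -0.40 to 0.33. Alternatives covered the code prefix, the replicate block, normalization, filters, variance models, and each array left out. Samples at 3 and 18 months entered the prefix fit and are given as values.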

Additional observations from a re-analysis of the deposited data

Results flagged for a closer look

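The 17513 rows with no single gene symbol were tested apart from the genes, and 7 of them (0.04%) passed at an adjusted p under 0.05 by limma, 2 higher and 5 lower at 12 months. They stand out as signal in rows that no gene comparison used. The higher rows were 17538825, with a difference of 2.50, and 17204083, with 1.64. The lower rows included 17388663, with -3.64, and 17514340, with -2.86, and the other 3 lower rows differed by -2.57, -1.92 and -1.82. For each of them the ages did not overlap. Their sign was the same with the prefix term over 24 arrays and within prefix HEN513, but with the prefix term 0 rows passed. With it row 17388663 differed by -1.71, row 17538825 by 1.70 and row 17204083 by 0.93. At 18 months the 2 HEN679 arrays of row 17388663 measured 4.79 and 5.26, and the HEN513 arrays 7.48 to 8.77. The HEN679 arrays were likewise lowest at 18 months for rows 17514340 (4.10 and 4.43, HEN513 4.92 to 6.26), 17514349 and 17514355. For row 17208545 and the 2 higher rows the prefixes overlapped at that age. Rows 17514340, 17514349 and 17514355 have close numbers, and whether they are independent was not tested. When all 41034 rows were adjusted together, 3 passed. The sources used here give no single gene for them.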

How the results depend on the processing

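With 12 arrays, limma called 0 genes over both genotypes, and the count stayed within 0 to 3 when each array was left out in turn. The highest count came without WT 12m replicate 1, and 2 genes passed without HSD2OB-tg 6m replicate 2. The wild-type count ran from 0 to 32, the HSD2OB-tg count from 0 to 1 and the count for their difference from 0 to 1. In each of median centring, trended variance and array weights 1 gene passed, namely Npy. In the fits with a prefix term among 12 arrays and within prefix HEN513, 1 gene passed, namely Nppa, and within HEN513 it was 1 for the HSD2OB-tg fit too. The replicate block gave 0 genes over both genotypes and changed no call there. For the code prefix it lowered the count from 34 to 1. In groups that mix prefixes, HEN679 was always replicate 1, and HEN753 was replicate 3 except for WT 6m replicate 1. The block thus takes up much of the prefix difference, so the lower count cannot tell how strong that difference is.

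Signs of named genes turned only in prefix settings. With the prefix term over 24 arrays these were Myh1 (1.01), Pvalb (0.78) and Mir15b (0.078). With it among 12 arrays they were Hsd11b2 (0.11), Epx (0.051), Prg2 (0.24), Atp6v0d2 (0.17) and Calcr (0.043). Within HEN513 they were Mepe (0.13), Hsd11b2 (0.23), Epx (0.21), Prg2 (0.31), Atp6v0d2 (0.21) and Calcr (0.008). The cause was not tested. Of 39 lists, 14 changed the sign of their median with the prefix term over 24 arrays, 16 among 12 arrays, 18 within HEN513 and 7 when the mean of the muscle genes was a covariate. Leaving out the 2 arrays lowest in muscle genes, an alternative chosen after seeing the data, changed 5. The fold minimum of 1.5 and the filter on low signal gave 0 genes.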

Other observations

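Secretory stress genes lay slightly higher at 12 months. The unfolded protein response list had a median of 0.09, with 10 of 14 genes above 0, and of 0.15 without WT 12m replicate 2. Of its genes, 4 were higher at an unadjusted p under 0.05, where the background is 5.02%. Sdf2l1, an endoplasmic reticulum protein of the chaperone complex, ran from 6.44 to 7.18 at 6 months (median 6.76) and from 7.11 to 7.62 at 12 months (median 7.40). It differed by 0.62 (SE 0.15, limma adjusted p = 0.295), and by 0.70 with the prefix term. Creld2, another stress-induced protein of that compartment, differed by 0.59 (SE 0.18). Among heat shock genes Hspb1, a small chaperone abundant in muscle, differed by -1.21 (SE 0.25) with no overlap between the ages, and by -0.36 with the prefix term. Cell cycle genes had a median of 0.02, with 13 of 20 above 0, and 0 of 20 had an unadjusted p under 0.05 in either direction. The cell cycle median was -0.07 with 7 of 20 above 0 under the prefix term, -0.16 with 4 of 20 within HEN513, and ran from -0.09 to 0.13 as each array was left out. Erythroid genes had a median of -0.22, and 0 of 9 were above 0, with a median of -0.36 to -0.11 as arrays were left out. In the list of inflammation and senescence-associated secretion, the chemokine gene Ccl7 differed by 0.64 (SE 0.18) and Igfbp3, a carrier of insulin-like growth factors, by -0.50 (SE 0.13).

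The arrays at 3 and 18 months place these levels in a longer series, as values without a test. C4b ran from 5.97 to 6.50 at 3 months and from 6.74 to 8.17 at 18 months, near its 12-month range of 7.02 to 8.42. Plin1 ran from 3.51 to 4.75 at 3 months and from 4.79 to 7.64 at 18 months. H2-Eb1 ran from 3.98 to 5.79 at 3 months and from 4.03 to 6.69 at 18 months, where 2 arrays lay near 4.0. Mmp12 was low at 3 months, at 2.34 to 3.49, and highest at 6 months. Cxcl9 at 18 months ran from 5.88 to 8.44, between the low and high WT arrays at 12 months.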
